A study of Mus musculus with 2 samples.

Results

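In all, 10 genes of bone morphogenetic protein (BMP) signaling were followed through the cells of Lewis lung carcinoma (LLC) tumors: the ligands Bmp2 and Bmp4, the secreted antagonists Grem1 and Mgp, the receptors Bmpr1a and Bmpr2, the inhibitory SMAD Smad6, and the target genes Id1, Id2 and Id3. They are 10 of the 32285 genes in the count tables, they were picked by name with levels from these same tables already known, and all 10 had UMIs (transcript molecules counted once each) in at least 1 cell class. Their levels are therefore a description, and no test was made of them.

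BMP ligands bind pairs of type I and type II serine/threonine kinase receptors, of which Bmpr1a is a type I and Bmpr2 a type II receptor. The receptors phosphorylate SMAD1 and SMAD5, which enter the nucleus with SMAD4 and switch on Id genes, whose products hold back basic helix-loop-helix transcription factors, and Smad6, which feeds back to limit the signal. Gremlin 1 and matrix Gla protein, the products of Grem1 and Mgp, bind BMP ligands outside the cell. In blood vessels this pathway is known for its part in endothelial quiescence, in arterial and venous identity and in the coating of vessels by mural cells.

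The tumors grew under the skin of C57BL/6 mice that carried 2 floxed alleles of Gucy1b1, which codes for the β1 subunit of soluble guanylate cyclase (sGC), the receptor for nitric oxide. Tamoxifen was given to all mice at an age of 4 weeks, in 5 doses. LLC cells followed at 8 weeks, and tumors were taken 2 weeks after that. The sGC-Ctr mice were Gucy1b1 flox/flox without a Cre, and the sGC-∆PC mice also carried Cspg4-CreERT2, a tamoxifen-dependent Cre knocked into Cspg4, a gene of pericytes and of other mural cells. Cells of 3 tumors were pooled into 1 library per genotype, so genotype, Cre insertion, pool and library cannot be told apart, spread between tumors cannot be seen, and every interval below (95%, exact) covers counting error only.

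The libraries held 15007 and 25631 barcodes, of which 131 were found in both, and 12220 and 22498 cells passed the filters, with medians of 35776.5 UMIs in sGC-Ctr and 8685 UMIs in sGC-∆PC. Cells were named by a gate on marker genes, which left out cells whose markers of a second class passed a limit, so some foreign marker RNA remained. The classes held 59 and 56 endothelial cells, 38 and 36 pericytes, 113 and 182 fibroblasts, 2184 and 2957 macrophages, 211 and 252 granulocytes, 52 and 50 T cells, 35 and 34 dendritic cells, and 6735 and 10367 cancer cells. Natural killer cells numbered 5 and 6 and were left out, and 2788 and 8558 cells passed no gate. Every marker of each named class was detected in that class in both libraries. The cells were chosen by these same markers, so this is no check of the class names. Gucy1b1 itself, the deleted gene, stood at 125 CPM (UMIs of the gene per 1000000 UMIs of the class) in sGC-Ctr pericytes (59 UMIs) and 41.6 CPM in sGC-∆PC pericytes (13 UMIs).

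Upstream sequence is shown for 3 of the 5 members whose 250 bases before the transcription start held a letter match to either of 2 motifs: Grem1, as the secreted antagonist, and Id2 and Id3, as the target genes. The receptors Bmpr1a and Bmpr2, the other 2, held GGCGCC at 198 and 105 bases before the start and are not printed. The Bmpr1a window (chr14:34502547-34502796, - strand) lies within the annotated gene (34411061-34503336), so the start used there is an inner one. The motifs are GGCGCC, a GC-rich motif known to be bound by SMAD1 and SMAD5, and GTCTG, which contains the core of the motif bound by SMAD4. Both strands were searched, the motifs do not overlap in these windows, and matches are in capitals. RefSeq sequences on GRCm38.p6, the assembly also called mm10, had an entry for 7 of the 10 members. Id1, Bmp2 and Mgp had none. Each is printed 5′ to 3′ on the strand of its gene, for Id3 chr4:136143572-136143821 (+ strand), for Id2 chr12:25096093-25096342 (- strand) and for Grem1 chr2:113758649-113758898 (- strand).
Id3: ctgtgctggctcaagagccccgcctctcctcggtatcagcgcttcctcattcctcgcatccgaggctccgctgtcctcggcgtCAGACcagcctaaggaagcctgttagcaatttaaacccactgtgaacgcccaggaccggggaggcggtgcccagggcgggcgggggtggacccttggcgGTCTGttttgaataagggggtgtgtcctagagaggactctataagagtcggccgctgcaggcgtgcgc
Id2: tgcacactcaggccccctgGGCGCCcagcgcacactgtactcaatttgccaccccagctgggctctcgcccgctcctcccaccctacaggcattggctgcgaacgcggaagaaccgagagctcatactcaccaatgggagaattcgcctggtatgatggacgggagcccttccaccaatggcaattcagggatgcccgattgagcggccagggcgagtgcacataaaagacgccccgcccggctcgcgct
Grem1: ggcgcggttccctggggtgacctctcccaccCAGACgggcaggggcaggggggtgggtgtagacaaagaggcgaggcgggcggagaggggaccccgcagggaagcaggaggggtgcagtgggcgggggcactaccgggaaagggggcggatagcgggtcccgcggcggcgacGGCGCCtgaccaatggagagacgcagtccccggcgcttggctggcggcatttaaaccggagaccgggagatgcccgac

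The Id3 window held GTCTG 2 times, beginning 167 and 68 bases before the start. The Id2 window held GGCGCC once, 231 bases before the start, and the Grem1 window held GGCGCC at 78 bases and GTCTG at 219 bases before it. Of 32851 promoter windows of the same length, 9.59% held GGCGCC and 42.2% held GTCTG, so such matches are common and describe the letters alone. Among the 7 members with an entry, 4 held GGCGCC and 2 held GTCTG, and the windows of Smad6 and Bmp4 held neither.

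Across classes the ligand Bmp2 was foremost a gene of endothelial cells (ECs). Bmp2 stood at 145 CPM (127 to 166) in sGC-Ctr ECs and 190 CPM (164 to 218) in sGC-∆PC ECs, against 16.9 and 22.4 CPM in pericytes, 9.56 and 12.0 CPM in cancer cells and at most 10.1 CPM in any other class. It was seen in 33 of 59 and 30 of 56 ECs, and in 0 of 52 and 0 of 50 T cells, which serve here as a gauge of free RNA and allow shares of up to 5.77% and 6.00%. Bmp4 was sparse everywhere: 22 UMIs in 12 of 59 sGC-Ctr ECs and 9 UMIs in 7 of 56 sGC-∆PC ECs, or 14.2 CPM (8.87 to 21.4) and 8.45 CPM (3.87 to 16.0). Cancer cells held Bmp4 at 4.21 and 5.16 CPM, the latter within the interval of sGC-∆PC ECs. No pericyte held a Bmp4 UMI, 0 of 38 and 0 of 36 cells, which allows shares of up to 7.89% and 8.33%.

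**Figure D1:**
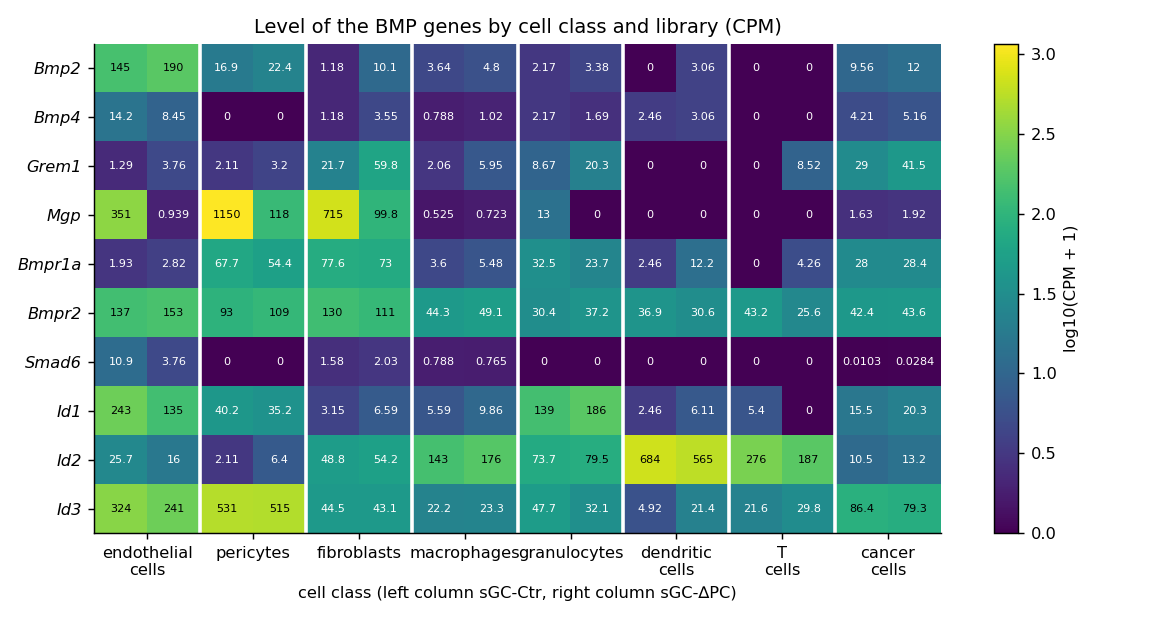
Level of each member (rows) in 8 cell classes (pairs of columns, sGC-Ctr left and sGC-∆PC right) as CPM printed in the cell and as log10(CPM + 1) in color. Bmp2 was highest in ECs (145 and 190 CPM), Mgp in pericytes (1150 and 118 CPM), Id2 in dendritic cells (684 and 565 CPM) and Id3 in pericytes (531 and 515 CPM). In sGC-∆PC the Mgp interval of pericytes overlaps that of fibroblasts (99.8 CPM). Without the highest cell of each class the order there turned, with 25.6 CPM in pericytes and 83.6 CPM in fibroblasts.

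The antagonists divided differently. Mgp was a gene of the vessel wall and of fibroblasts, with 1150 CPM in sGC-Ctr pericytes and 715 CPM in sGC-Ctr fibroblasts, against 1.63 and 1.92 CPM in cancer cells. In sGC-∆PC pericytes held 118 CPM of Mgp and fibroblasts 99.8 CPM, and without the highest cells 25.6 and 83.6 CPM. Granulocytes held 6 and 0 UMIs of it, and dendritic cells and T cells none, in 35 and 34 and in 52 and 50 cells, which allow shares of up to 8.57%, 8.82%, 5.77% and 6.00%. Grem1 was foremost in cancer cells and fibroblasts: cancer cells held 29.0 CPM (28.5 to 29.6) in sGC-Ctr and 41.5 CPM (40.8 to 42.2) in sGC-∆PC, in 48.1% and 41.8% of cells, or 4.70% and 6.98% when each cell was thinned to 2000 UMIs. Fibroblasts held 21.7 CPM (16.3 to 28.2) and 59.8 CPM (49.5 to 71.6). The order of the 2 classes in sGC-∆PC rested on 1 fibroblast with 53 of the 118 UMIs: without it fibroblasts held 32.9 CPM and stood below cancer cells, as they did in sGC-Ctr. Pericytes held 1 Grem1 UMI in each library and ECs 2 and 4.

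Of the receptors, Bmpr2 was spread more evenly over the classes than Bmpr1a. Bmpr2 was found in all 8 classes, from 25.6 CPM in sGC-∆PC T cells to 153 CPM in sGC-∆PC ECs, and the ECs, fibroblasts and pericytes stood above every other class in both libraries. Bmpr1a stood at 77.6 and 73.0 CPM in fibroblasts, 67.7 and 54.4 CPM in pericytes and 28.0 and 28.4 CPM in cancer cells. Granulocytes held 32.5 and 23.7 CPM on 15 and 14 UMIs, and the part of free RNA in this level was not tested. Bmpr1a was low in the other classes: macrophages held 3.60 and 5.48 CPM, dendritic cells 1 and 4 UMIs and T cells 0 and 1. In ECs Bmpr1a held only 3 UMIs in each library, 1.93 CPM (0.398 to 5.64) and 2.82 CPM (0.581 to 8.23). The type I receptor Acvrl1, which takes BMP signals in endothelium, was in contrast found in ECs with 224 and 123 UMIs. Smad6 was the sparsest member, with 17 UMIs in 10 of 59 sGC-Ctr ECs and 4 UMIs in 3 of 56 sGC-∆PC ECs, and no class other than ECs exceeded 2.03 CPM.

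The 3 Id genes marked different classes. Id1 was highest in ECs (243 CPM) and granulocytes (139 CPM) in sGC-Ctr. In sGC-∆PC the order turned, with 186 CPM in granulocytes and 135 CPM in ECs, whose intervals overlap. Granulocytes are shallow cells, with medians of 2079 and 2283.5 UMIs, yet 24.6% and 28.6% of them held an Id1 UMI, against 1 of 52 and 0 of 50 T cells. Id2 was highest in dendritic cells, at 684 CPM (606 to 769) and 565 CPM (487 to 653), then in T cells (276 and 187 CPM) and macrophages (143 and 176 CPM), and it was close to absent from pericytes, with 1 and 2 UMIs. Id2 is a known factor of dendritic and innate lymphoid cell development, and these cells were not chosen by it. Id3 was highest in pericytes, at 531 CPM (467 to 601) and 515 CPM (439 to 601), and next in ECs (324 and 241 CPM) and cancer cells (86.4 and 79.3 CPM).

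**Figure D2:**
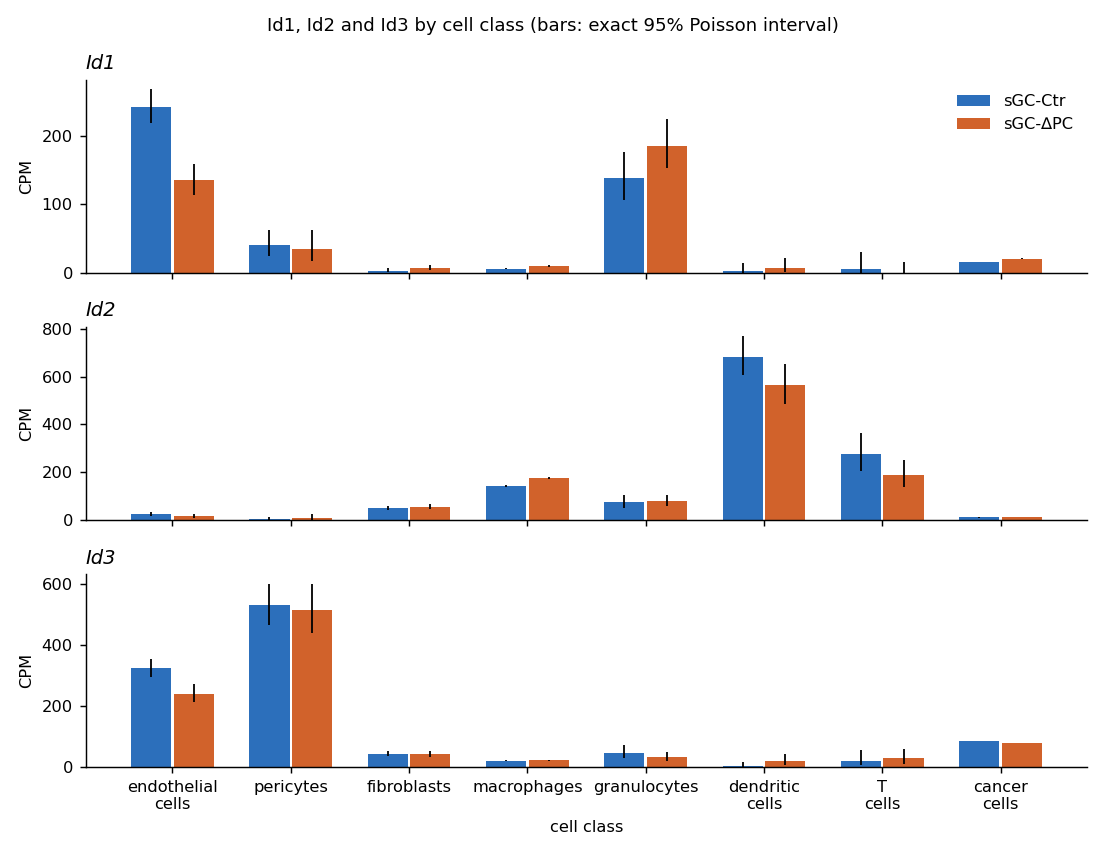
Level of Id1, Id2 and Id3 (CPM, vertical axes) in 8 cell classes for sGC-Ctr (blue) and sGC-∆PC (orange), with exact 95% Poisson intervals. Id1 stood in ECs and granulocytes, Id2 in dendritic cells, T cells and macrophages, and Id3 in pericytes and ECs.

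Between the libraries, a member was counted where it had at least 50 UMIs in a class over both libraries and differed at least 2-fold. In ECs 6 members could be counted, 1 was at least 2-fold lower in sGC-∆PC (Mgp) and none was at least 2-fold higher, beside 0.716% of all 6005 genes counted in ECs that were lower and 0.849% that were higher. In pericytes 3 members could be counted and 1 was lower (Mgp), beside 1.73% of 2376 genes lower and 1.22% higher. In fibroblasts 6 could be counted, 1 was lower (Mgp) and 1 higher (Grem1), beside 1.16% of 7662 genes lower and 0.966% higher. In macrophages 1 of 7 was higher (Grem1) and none lower, beside 0.951% and 0.348% of 11773 genes, in cancer cells none of 9, beside 3.77% of 15101 genes higher and 0.139% lower, and in granulocytes none of 2, beside 1.41% of 2344 genes higher and 2.26% lower. The members were picked with these ratios known, so nothing is read from the counts.

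**Figure D3:**
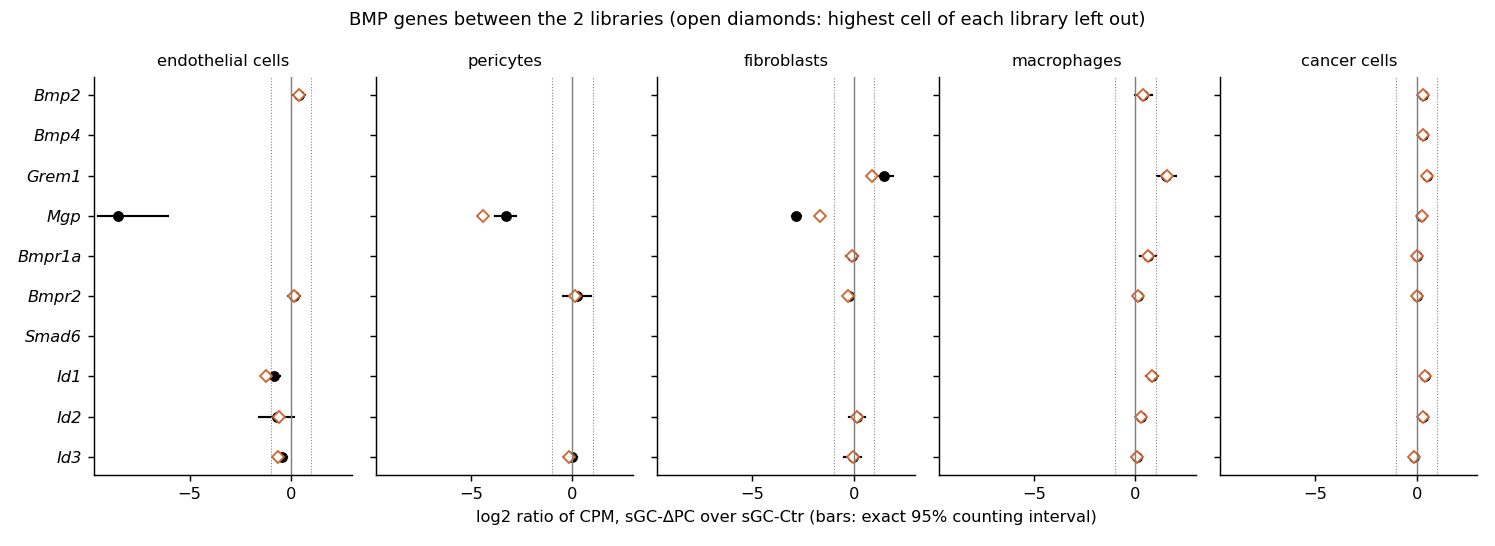
Log2 ratio of CPM in sGC-∆PC over sGC-Ctr (horizontal axis) for each member with at least 50 UMIs in 5 classes. Black points carry exact 95% counting intervals, open diamonds leave out the cell with the most UMIs of the gene in each library, dotted lines mark 2-fold, and the interval of Mgp in ECs runs to -13.85, beyond the axis. Mgp in ECs has no diamond, since no UMI was left.

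The Mgp value of ECs was the value of 1 cell. All 546 Mgp UMIs of the 59 sGC-Ctr ECs lay in a cell of 30688 UMIs, and the other 58 cells held none. The 56 sGC-∆PC ECs held 1 UMI. The log2 ratio of -8.55 (-13.85 to -6.06) thus compares the presence of this cell with its absence. The cell held endothelial transcripts (57 UMIs of Cldn5 and 38 of Pecam1) and all 6 arterial markers, 285 of their 691 UMIs in the class (41.2%). Its part of each marker was uneven: 55 of 61 UMIs of Gja5, which codes for connexin 40, 15 of 19 of Bmx, 30 of 40 of the semaphorin Sema3g and 60 of 105 of Gja4, which codes for connexin 37, but 108 of 305 of Fbln5 and 17 of 161 of Efnb2. It also held 210 of the 216 UMIs of elastin (Eln), a matrix protein of artery walls. Among its class it was high in Id1 (28 UMIs) and Id3 (37 UMIs) as well.

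In pericytes Mgp was spread over more cells but was still uneven. In sGC-Ctr 10 of 38 pericytes held 285, 63, 62, 55, 26, 21, 20, 7, 4 and 1 UMIs, and in sGC-∆PC 3 of 36 held 29, 6 and 2. The levels were 1150 CPM (1056 to 1251) and 118 CPM (83.4 to 163). Their log2 ratio was -3.28 (-3.80 to -2.80). Without the highest cell of each library 259 and 8 UMIs were left and the ratio was -4.42 (-5.65 to -3.42), so the direction did not rest on 1 cell. It was -6.79 where mitochondrial UMIs were held under 5%. After thinning to 2000 UMIs, 9 of 38 and 2 of 25 pericytes held the transcript, 23.7% (11.4 to 40.2) and 8.00% (0.984 to 26.0), which overlap. Of 6 markers of contractile smooth muscle, another mural cell, 5 were lower in sGC-∆PC pericytes, and their sum was 748 and 426 CPM. Only Myh11, a smooth muscle myosin (143 and 34 UMIs), and Mustn1 (57 and 7 UMIs) had intervals that leave out no change. Smooth muscle actin (Acta2), not among the 6, had a ratio of -0.12 (-0.23 to -0.004). The pericyte with 285 Mgp UMIs held no UMI of the 6 markers. Of the pericytes with a Myh11 UMI, 8 of 20 held Mgp in sGC-Ctr and 0 of 13 in sGC-∆PC, which allows a share of up to 23.1%. Of those without, 2 of 18 and 3 of 23 did. Fibroblast markers in pericytes stood at 34.5 and 39.7 UMIs per 10000, and the pericyte with 285 Mgp UMIs held 55 UMIs of them. The part of smooth muscle and fibroblast transcripts in the Mgp ratio was not tested.

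In fibroblasts Mgp was lower in sGC-∆PC with and without its highest cell. Of 113 sGC-Ctr fibroblasts 58 held it, and 1 cell had 1143 of the 1815 UMIs; the next 2 had 83 and 52. Of 182 sGC-∆PC fibroblasts 42 held it, the highest with 32, 31 and 17 of 197 UMIs. The levels were 715 CPM (682 to 748) and 99.8 CPM (86.4 to 115). Their log2 ratio was -2.84 (-3.06 to -2.63), and -1.66 (-1.92 to -1.41) without the highest cells. Fibroblasts had medians of 21654 and 3463.5 UMIs, so shares over all UMIs are not those of equally deep cells. Thinned to 2000 UMIs, which left out 3 and 51 shallower cells, 26.4% (18.4 to 35.6) and 9.16% (4.82 to 15.5) held Mgp, intervals that do not overlap. Markers of adventitial fibroblasts, the cells around larger vessels, stood lower too, with 5 of 5 lower and a sum of 1428 and 801 CPM. Of all genes counted in fibroblasts 56.4% were below 0. The cell of 1143 Mgp UMIs held 23 of the 3627 UMIs of the adventitial markers in its class (0.634%), and none of Pi16 and Clec3b. The part of the adventitial markers in the Mgp ratio was not tested.

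**Figure D4:**
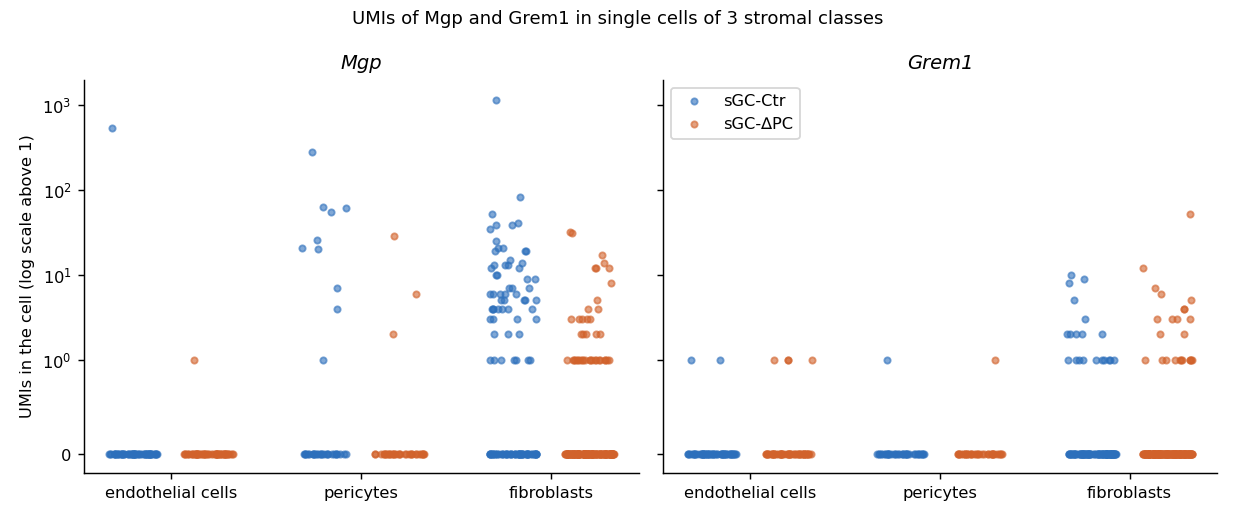
UMIs of Mgp (left) and Grem1 (right) in each cell (points, log scale above 1) of 3 classes in sGC-Ctr (blue) and sGC-∆PC (orange). The Mgp sum of ECs was 1 sGC-Ctr cell of 546 UMIs, 1 sGC-Ctr fibroblast held 1143, and 1 sGC-∆PC fibroblast held 53 Grem1 UMIs, while no EC or pericyte held more than 1.

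Grem1 had few UMIs outside cancer cells and these lay in few cells. In fibroblasts 20 of 113 sGC-Ctr cells held 55 UMIs, the highest with 10, 9 and 8, and 24 of 182 sGC-∆PC cells held 118, the highest with 53, 12 and 7. The log2 ratio of 1.46 (0.99 to 1.95) was 0.89 (0.32 to 1.48) without the highest cells and 0.39 under a stricter gate, so it did not pass 2-fold without the cell of 53 UMIs or under that gate. The thinned shares, 2.73% (0.566 to 7.76) and 4.58% (1.70 to 9.70), overlap.

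A droplet outside every gate carried most of the Grem1 that clustering placed with pericytes. It was an sGC-Ctr cell of 17600 UMIs with 64 UMIs of Grem1, 188 of smooth muscle actin (Acta2), 169 of Tagln, 33 of Mustn1, 31 of Cnn1 and 23 of Myh11, genes known from smooth muscle. Of the 10 pericyte markers it held 4, with 23 UMIs in all, 16 of them of the intermediate filament gene Des and none of Rgs5. Of the 9 fibroblast markers it held 8, with 147 UMIs. When the cells of each library were clustered instead of gated, the sGC-Ctr pericyte cluster had 65 Grem1 UMIs, 64 of them in its highest cell. In the gate pericytes of either library had 1, so a Grem1 difference between pericytes of the 2 libraries was not detectable without this droplet. No cluster of sGC-∆PC cells was named pericytes.

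Grem1 was also higher in sGC-∆PC macrophages, with 55 UMIs in 53 of 2184 cells and 140 UMIs in 132 of 2957 cells, a log2 ratio of 1.53 (1.07 to 2.01). No macrophage held more than 2 of these UMIs. Thinned shares in macrophages were 0.416% and 1.96%, in granulocytes 0 of 116, which allows up to 2.59%, and 2.65% (4 of 151), and in T cells 0 of 45, which allows up to 6.67%, and 4.26% (2 of 47). In sGC-∆PC the macrophage share was no higher than those of granulocytes and T cells, and in sGC-Ctr it was under the limits that their counts of 0 allow, so no expression by macrophages is read from it. The part of free RNA in the ratio was not tested. The cancer cells of the same libraries had 29.0 and 41.5 CPM, and the summed cancer-cell markers in macrophages were 1.29 and 1.45 UMIs per 10000.

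Id1 was lower in sGC-∆PC ECs over many cells. Of 59 sGC-Ctr ECs 48 held 378 UMIs, the highest with 29, 28 and 27, and of 56 sGC-∆PC ECs 24 held 144, the highest with 41, 18 and 18. Id1 thus stood at 243 CPM (219 to 269) in sGC-Ctr and at 135 CPM (114 to 159) in sGC-∆PC. The log2 ratio was -0.85 (-1.13 to -0.57), under the 2-fold limit, at or below which stood 1.55% of all genes counted in ECs. Without the highest cells the ratio was -1.21 (-1.55 to -0.89). Over the alternatives it ran from -1.44 with thinned cells, which count each cell alike, to -0.78 under the stricter gate. In the thinned cells 24.6% (14.1 to 37.8) and 8.16% (2.27 to 19.6) held Id1, intervals that overlap.

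Depth moved with this difference, since the ECs had medians of 23410 and 11875 UMIs. Among ECs of at least 10000 UMIs, 45 of 51 in sGC-Ctr and 20 of 31 in sGC-∆PC held Id1, at 245 CPM (221 to 271) and 147 CPM (124 to 174). Below 10000 UMIs 3 of 8 and 4 of 25 held it. Pericyte markers in ECs moved with it too, with 10 of 10 detected and a sum of 3.56 UMIs per 10000 in sGC-Ctr, and 5 of 10 and 1.21 in sGC-∆PC. Fibroblast markers stood at 2.40 and 1.88, macrophage markers at 0.746 and 0.977 and cancer-cell markers at 0.959 and 0.836 UMIs per 10000. The part of these transcripts and of depth in the Id1 ratio was not tested.

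Id3 moved less in the same cells, with 503 UMIs in 44 of 59 and 257 UMIs in 31 of 56 ECs and a log2 ratio of -0.42 (-0.65 to -0.20). Id2 had 40 and 17 UMIs, a ratio of -0.69 (-1.60 to 0.16) that spans no change, and Smad6, under the limit of 50 UMIs, had 17 and 4. Across single ECs the levels of Id1 and Id3 went together, with Spearman's rho of 0.57 over 59 and 0.40 over 56 cells, whereas that of Id1 with Bmp2 was -0.21 and -0.20. These cells share a library, and in sGC-∆PC the Id1 level also went with the depth of the cell (rho 0.54, against 0.12 in sGC-Ctr).

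**Figure D5:**
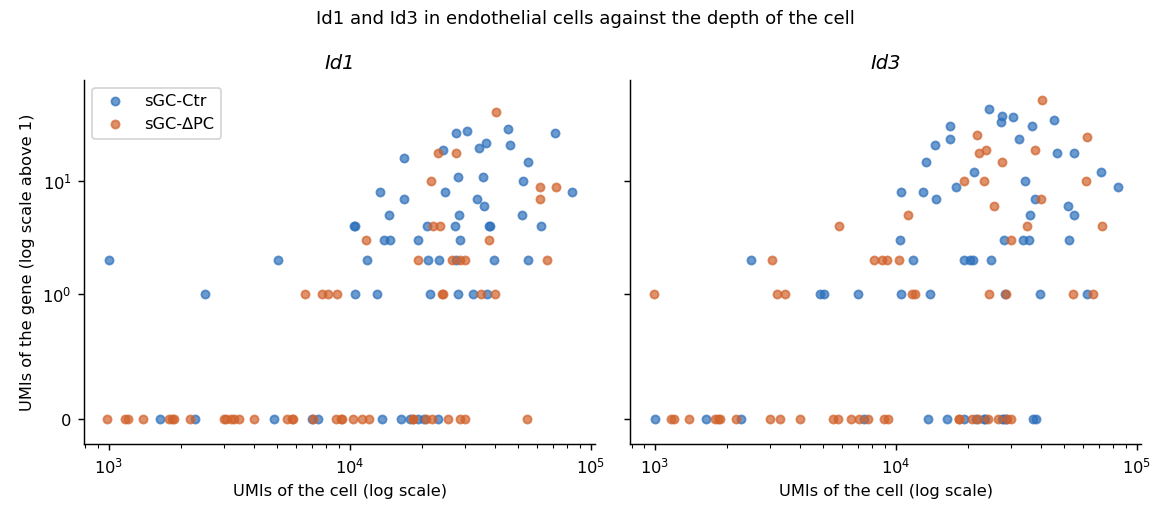
UMIs of Id1 (left) and Id3 (right) in each EC against all UMIs of the cell (both axes log, the vertical one above 1) for sGC-Ctr (blue, 59 cells) and sGC-∆PC (orange, 56 cells). Among ECs of at least 10000 UMIs, 45 of 51 blue and 20 of 31 orange points held Id1.

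Id1 differed between ECs with and without a UMI of Gja4 or of Angpt2. ECs with a Gja4 UMI, an arterial marker, held 459 CPM (392 to 533) of Id1 in 13 sGC-Ctr cells and 518 CPM (397 to 664) in 5 sGC-∆PC cells, intervals that overlap. ECs without Gja4 held 176 CPM (153 to 202) in 46 cells and 86.8 CPM (69.0 to 108) in 51 cells. Id3 had the same order, with 722 and 977 CPM in ECs with Gja4 and 200 (175 to 227) and 148 CPM (125 to 175) in those without. Gja4 was not particular to ECs: pericytes held 152 and 72 of its UMIs, and ECs 105 and 63. The cell of 546 Mgp UMIs held 60 of the 105. Of the arterial markers only the split by Gja4 is given, and the part of depth and of pericyte RNA in it was not tested. ECs with Angpt2, a gene of sprouting ECs, had less Id1 than those without it in both libraries, at 211 against 390 CPM in sGC-Ctr and 94.3 against 345 CPM in sGC-∆PC. Of the sprouting markers only the split by Angpt2 is given, and the part of depth in it was not tested.

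The sprouting markers themselves stood higher in sGC-∆PC ECs. Of 5 tip-cell markers 4 were higher, their sum was 1259 and 2001 CPM, and Esm1 had a log2 ratio of 1.66 (1.35 to 1.97) and Angpt2 of 0.96 (0.77 to 1.15). Of 5 venous markers 4 were lower, beside 50.8% of all genes counted in ECs that were below 0. Only the venule receptor Ackr1, with 73 and 7 UMIs, and Selp, the gene of P-selectin, with 113 and 31, had intervals that leave out no change. Vwf at -0.10 (-0.31 to 0.10) and Vcam1 at -0.17 (-0.83 to 0.47) spanned it, and Nr2f2 stood at 0.07 (-0.43 to 0.56). Of 6 arterial markers 4 were lower, and Gja5, the lowest of them, had 61 and 10 UMIs, of which the cell of 546 Mgp UMIs held 55. That cell held 285 of the 691 arterial UMIs of sGC-Ctr ECs, so the arterial count rests in large part on it. Sema3g was higher in sGC-∆PC even with that cell, at 0.75 (0.10 to 1.40), and Efnb2 stood at 0.06 (-0.30 to 0.41). Whether the lower Id1 level follows the mix of tip, venous and arterial cells was not tested.

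Bmp2 stood against the Id genes in ECs, with 226 and 202 UMIs and a log2 ratio of 0.38 (0.10 to 0.66). In the thinned cells 9 of 57 and 18 of 49 ECs held it, 15.8% (7.48 to 27.9) and 36.7% (23.4 to 51.7). The ratio there was 1.16 on 13 and 25 UMIs, under the limit of 50. Bmpr2 had a ratio of 0.16 (-0.14 to 0.46). In pericytes Id3 had 251 and 161 UMIs and a ratio of -0.04 (-0.34 to 0.25), and Bmpr2 0.23 (-0.46 to 0.90). In ECs thinned to 2000 UMIs the ratio of Bmpr2 was -0.23 on 15 and 11 UMIs, too few to give a direction. In fibroblasts Id2, Id3, Bmpr1a and Bmpr2 had ratios from -0.22 to 0.15, each with an interval that spans no change. Bmpr2 depended on how cells were weighted: its ratio was -0.22 over all UMIs, -0.27 (-0.53 to -0.01) without the highest cells, and just past 2-fold lower in thinned cells, with 32 UMIs in 28 of 110 and 19 UMIs in 17 of 131 cells, shares whose intervals overlap. Id3 stood at 0.75 in the same thinned cells on 10 and 20 UMIs, and Bmp2 had 3 and 20 UMIs over all UMIs, each under the limit of 50.

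In macrophages Id1 was higher in sGC-∆PC, with 149 and 232 UMIs and a ratio of 0.82 (0.52 to 1.13), Bmpr1a had 0.61 (0.21 to 1.00) and Id2 0.30 (0.24 to 0.37). Thinned shares of Bmpr1a were only 0.648% and 1.15% in macrophages, under the 6.90% and 5.96% of granulocytes, so no expression by macrophages is read from its ratio. Fibroblast markers in macrophages stood at 3.02 and 4.24 UMIs per 10000, and the part of free RNA in that ratio was not tested. Id1 was seen in 1.34% (0.900 to 1.92) and 2.34% (1.74 to 3.08) of thinned macrophages. T cells held 1 and 0 Id1 UMIs, too few to set a level of free RNA beside it. In granulocytes Id1 had 64 and 110 UMIs and a ratio of 0.42 (-0.03 to 0.89). Cancer cells, with the most UMIs, had the narrowest intervals. Grem1 had a ratio of 0.52 (0.48 to 0.55), Id1 0.39 (0.34 to 0.44), Id2 0.33 (0.26 to 0.39), Bmp2 0.33 (0.26 to 0.39), Bmp4 0.29 (0.19 to 0.39) and Id3 -0.12 (-0.15 to -0.10), while Bmpr1a and Bmpr2 lay at 0.02 and 0.04. These cells had medians of 52103 and 17082 UMIs, and after thinning Bmp2 stood at -0.14, Bmpr1a at -0.43 and Bmpr2 at -0.26, so of these only the directions of Grem1, Id1, Id2, Bmp4 and Id3 held.

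The members stand within a list of 59 genes of the pathway, of 13 ligands, 17 antagonists, 10 receptors, 8 SMADs and ubiquitin ligases and 11 targets. In ECs 19 of the 59 had at least 50 UMIs, and 9 were below and 10 above 0, with a median log2 ratio of 0.06 beside -0.01 over all genes counted. By role, 5 of 6 SMADs and ubiquitin ligases were above 0, with a median of 0.19, beside 50.8% of all genes below 0. Of 5 targets 4 were below 0, with a median of -0.69. Of these, 3 are members picked with their ratios known, so nothing is read from the count of targets. The targets below 0 were the 3 Id genes, of which Id2 had an interval that spans no change, and Gata2, an endothelial transcription factor (62 and 26 UMIs, -0.71, -1.43 to -0.03), and the notch target Hey1 was the other, at 0.43 (-0.17 to 1.02). Bambi, a decoy receptor that dampens BMP and TGF-β signals, was seen in 39 of 59 and 17 of 56 ECs, with a ratio of -0.80 (-1.36 to -0.26).

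In pericytes 7 of the 59 were counted, and 5 were below 0, as were 57.7% of all genes counted there. The 3 antagonists among them were Mgp, Nbl1 and Fstl1, the last with a ratio of -0.14 (-0.44 to 0.16) that spans no change. Nbl1, a secreted BMP antagonist of the DAN family, had 68 UMIs in 25 of 38 and 22 UMIs in 15 of 36 pericytes, a ratio of -1.03 (-1.79 to -0.32), and its highest cell held 16.2% and 18.2% of them. In fibroblasts 30 were counted, with a median of -0.10 beside -0.04 over all genes. Of the 12 antagonists there, 8 were below 0, beside 56.4% of all genes. At least 2-fold lower were 3 of them: Mgp, Smoc2, a matrix protein that holds back BMP signals (142 and 47 UMIs in 28 and 17 cells, -1.23, -1.74 to -0.75), and Chrd, which codes for the BMP-binding protein chordin (39 and 13 UMIs in 25 and 10 cells, -1.22, -2.25 to -0.28). In cancer cells 37 were counted, and 3 were at least 2-fold higher, beside 3.77% of all genes counted there. They were Acvrl1 at 1.27 (227 and 444 UMIs), Nbl1 at 1.18 (0.80 to 1.56) and the activin and BMP binding protein follistatin (Fst) at 1.03 (0.84 to 1.21), none of which exceeded 2.02 CPM. Macrophages held 1163 and 1212 Acvrl1 UMIs, and their markers in cancer cells stood at 0.815 and 1.64 UMIs per 10000. Granulocyte markers there stood at 0.221 and 0.534. The part of free RNA in these 3 ratios was not tested.

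Across the 16 profiles of 8 classes in 2 libraries, the genes with the most similar levels were compared by Pearson's r of log2(CPM + 10) over 15864 genes. Those nearest to Grem1 were Sema3a (0.93), Fosl1 (0.92) and Dnm1 (0.91), and those nearest to Id2 were Bcl2a1b, Rgs1 and Runx3 (all 0.94). Bmp4 was nearest to Gm13594, Itgb4 and Rapgef3 (all 0.91), Id1 to Schip1 (0.92), Gm37800 (0.90) and Kcnj2 (0.89), Mgp to Prickle2 (0.91), Gm19531 and Arhgap44 (both 0.90), and Smad6 to Foxd2 (0.98), Gm16181 and Dbil5 (both 0.97). These profiles share libraries and depth, and those of Mgp and Smad6 rest on 3 classes and 1 class.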

How the data were processed

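Single cells of LLC tumors were measured with the 10x Genomics 3′ kit, 1 library per genotype. The authors aligned and counted reads with Cell Ranger 6.1.1 (mm10, GENCODE vM23 annotation, Ensembl 98) and deposited raw UMI counts per gene and barcode, used here as they stand. The limits of the authors' filters were followed: mitochondrial UMIs had to stay under 10%. On the log scale neither the UMIs nor the genes of a cell could lie over 3 median absolute deviations from their library's median. The authors also left out whole clusters with markers of more than 1 class, whereas here the gate left out single cells. After all its steps the paper kept fewer cells than the 12220 sGC-Ctr and 22498 sGC-∆PC cells that passed here, above all in sGC-∆PC. The cell sets therefore differ, and the source of the difference was not tested. A cell entered a class when its class markers reached a set level per 10000 UMIs (15 for ECs, 20 for pericytes, 150 for fibroblasts, 25 for macrophages, 100 for granulocytes, 10 for T cells, 4 for dendritic cells, 8 for cancer cells), with at least 3 markers seen, and those of every other class stayed under 50% of theirs or under 2 UMIs. Among ECs, pericytes and fibroblasts the other list, as a multiple of its level, had to stay at or under 50% of the cell's own. These levels were set from the markers, after the counts were read. Genes were named by these rules: the 10 members, pathway genes at least 2-fold apart with an interval leaving out no change, the 3 nearest genes by correlation, and subtype markers beside a result. Bambi, Gata2, Hey1, Acvrl1 in ECs and the genes of single cells were named after their values were seen. Members and lists were chosen with earlier results of these data known. Sums per class and library became CPM with exact Poisson intervals, shares have exact binomial intervals, and log2 ratios have exact conditional ones, all at 95%; limits beside a count of 0 are 3 counts of the total. Shares were repeated with cells thinned at random to 2000 UMIs. Cells are not replicates, so no test was made. Scrublet marked 481 sGC-Ctr droplets (3.94%) and 0 in sGC-∆PC, so it did not work there and doublets were not removed beyond the gate. Clusters came from the Leiden method per library (3000 variable genes, 20 components, 15 neighbors, resolution 2.0) and were named by the same gate. The log2 ratio and its interval were tested on simulated Poisson sums, which leave out the uneven spread of UMIs over cells. Thinning was checked to leave 2000 UMIs in each cell. The gate, the clusters and the doublet calls were not tested on simulated counts. The tools were scanpy 1.11.5 and igraph 0.11.9 for clusters, scipy 1.17.1 for intervals, and Python 3.11.15.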

Additional observations from a re-analysis of the deposited data

How the results depend on the processing

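Of 230 log2 ratios of members recomputed under another setting, 185 stayed within the counting interval of the value given, 45 left it, and no ratio past 2-fold turned its direction. The settings differed in this: in cells thinned to 2000 UMIs 21 ratios left it and only 12 stayed. All 33 stayed when scaled by the median ratio over genes, and all 33 without the filter by median absolute deviation. The count of members at least 2-fold lower in ECs was 1 and became 2 with mitochondrial UMIs under 5%, with the looser gate or from 20 UMIs, 3 at a 1.5-fold limit and 0 in cells thinned to 2000 UMIs, where fewer members reached 50 UMIs. Without the highest cell of each gene, a setting chosen after seeing the data, it stayed at 1, but this was Id1 in place of Mgp. In fibroblasts the count lower was 1 and became 2 in thinned cells, where Bmpr2 joined Mgp, and the count higher was 1 and became 0 in thinned cells, with the stricter gate or without the highest cell, and 3 from 20 UMIs. In macrophages the count higher was 1 and became 3 at a 1.5-fold limit. The median of the pathway list went from -0.10 to -0.68 in fibroblasts and from 0.08 to -0.14 in cancer cells when cells were thinned; the cause was not tested. The levels of members left their interval in 112 of 280 comparisons with thinned cells or clusters. Clusters gave no value for sGC-∆PC ECs, pericytes and dendritic cells or for sGC-Ctr fibroblasts, since none was named so, and leaving out called doublets was not run, since none was called in sGC-∆PC. No paired analysis was possible because each genotype has 1 library, and for the same reason no replicate could be left out. Depth limits the small classes: only 3 members reached 50 UMIs in pericytes, 2 in granulocytes, and 1 each in T cells and dendritic cells.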
